A study of Mus musculus with 6 samples.

Results

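The Smad family was followed in fetal lungs with a conditional knockout of Smad1 in the epithelium. Members were all probe sets to which the platform annotation gives the symbol of 1 of 8 Smad genes, out of 18193 genes with a symbol. They came to 18 of the 45037 probe sets left on the array once control probe sets were set aside. Smad1, Smad5, Smad3 and Smad4 had 3 probe sets each, Smad2 and Smad7 had 2, and Smad9 and Smad6 had 1. The lungs came from E18.5 mouse embryos of strain C57/BL6, 3 wild type and 3 carrying a conditional knockout of Smad1 (Smad1 CKO, here CKO), 1 left lobe and 1 Affymetrix Mouse430_2 array per animal, in 3 pairs of 1 wild type and 1 CKO. The series describes the knockout as specific to lung epithelium. Neither the Cre driver nor the floxed part of the gene is given in the sources used here, nor whether the wild type animals carried either of them.

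Smads carry signals of the transforming growth factor beta (TGF-beta) superfamily from receptors at the cell surface to genes. Smad1, Smad5 and Smad9 are phosphorylated by receptors for bone morphogenetic proteins (BMPs), Smad2 and Smad3 by receptors for TGF-beta and activin, and both kinds bind the common Smad4 to enter the nucleus. Smad6 and Smad7 block these steps and are themselves transcribed in response to the signals, as a negative feedback. In fetal lung, BMP signalling acts in the distal epithelium during branching and differentiation. The title of the series ties Smad1 to Wif1, a secreted Wnt inhibitor named there as its target, and to BMP and Wnt signalling. Beside that, the family poses 2 questions, how much Smad1 signal remained in the lobe and whether related Smads were higher in the CKO lobes.

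Promoter windows are shown for 3 members, the targeted gene, its closest relative in the BMP branch and the feedback inhibitor of that branch, because transcription through Smads uses short motifs of known letters. They come from RefSeq (GRCm38.p6) and run 5′ to 3′ from 250 bases before the start of transcription, with +1 as the first transcribed base. Capitals mark 3 motifs that were searched on both strands, the Smad palindrome GTCTAGAC, the GC-rich palindrome GGCGCC and GGAGCC with its reverse complement GGCTCC. Smad1 is shown at chr8:79399425-79399678 (minus strand, to +4), Smad5 at chr13:56702760-56703038 (plus strand, its most upstream start, to +29) and Smad6 at chr9:64022056-64022309 (minus strand, to +4).
Smad1: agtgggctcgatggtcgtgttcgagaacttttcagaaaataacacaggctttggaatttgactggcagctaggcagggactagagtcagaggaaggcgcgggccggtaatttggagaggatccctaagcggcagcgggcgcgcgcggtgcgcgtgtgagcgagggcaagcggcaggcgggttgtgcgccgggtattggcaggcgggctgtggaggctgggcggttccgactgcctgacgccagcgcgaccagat
Smad5: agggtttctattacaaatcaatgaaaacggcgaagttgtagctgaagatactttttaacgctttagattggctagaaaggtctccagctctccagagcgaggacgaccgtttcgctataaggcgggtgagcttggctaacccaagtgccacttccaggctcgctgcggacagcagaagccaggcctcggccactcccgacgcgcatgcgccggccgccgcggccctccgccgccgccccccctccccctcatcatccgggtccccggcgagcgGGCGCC
Smad6: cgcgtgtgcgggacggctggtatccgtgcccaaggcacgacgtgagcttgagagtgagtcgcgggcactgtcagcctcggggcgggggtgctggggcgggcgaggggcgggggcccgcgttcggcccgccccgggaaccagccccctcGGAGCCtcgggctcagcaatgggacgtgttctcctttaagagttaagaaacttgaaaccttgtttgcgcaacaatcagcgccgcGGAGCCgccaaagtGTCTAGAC
The Smad6 stretch held GTCTAGAC from -4 to +4, across the start of transcription used for this window. It also held GGAGCC at -102 to -97 and at -18 to -13. The Smad6 gene body given below reaches further upstream, to 64022085, so these positions hold only for the start shown. Of the 32851 promoter windows of 300 bases in the table (250 before and 50 after the start), 0.213% held GTCTAGAC, 11.9% held GGCGCC and 30.8% held GGAGCC or its reverse complement. The Smad1 window held none of the 3, and Smad5 held GGCGCC at +24 to +29 of the start shown. The same bases lie at -19 to -14 of another annotated Smad5 start, and a further start held GGAGCC or its reverse complement at -117 to -112. Smad9 held GGCGCC at -51 to -46 and GGAGCC in 1 or the other orientation at -6 to -1 and at +19 to +24, and Smad3 held none. These are matches of letters and not measured binding. The gene bodies lie at chr8:79338395-79399428 for Smad1, chr13:56703010-56742378 for Smad5 and chr9:63953076-64022085 for Smad6.

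CKO 3 stood apart from the other 5 arrays. It read 2887 on the control probe set for 18S ribosomal RNA, where the remaining arrays read 242.5 to 297.2, and 5820 on that for beta-actin, where they read 18445 to 20900. Across all probe sets its mean correlation with the other arrays was 0.893, against 0.956 to 0.969 for the rest. CKO 1 differed from the other arrays in sex-linked genes, with Xist at 10.9 (log2) against 6.07 to 7.70. Without detection calls, the presence of tissue markers could not be tested. The summed intensity of 15 general lung epithelial genes was 27154 to 29012 in wild type lungs, 26652 in CKO 1, 32217 in CKO 2 and 9441 in CKO 3. That of 5 liver genes, markers from outside the tissue, was 357 to 417 in wild type and 613, 380.0 and 578 in CKO 1 to 3. Endothelial markers summed to 19007 to 26111 in wild type lungs and to 17860, 17702 and 5798 in CKO 1 to 3. Summed over all 18193 genes, intensity was 8345500 to 9460830 in wild type lungs and 7862750, 9258760 and 4250690 in CKO 1 to 3. The part of this array-wide low signal in the marker sums of CKO 3 was not tested. Because a whole lobe was measured, fewer cells of a type and less RNA per cell cannot be told apart either.

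Values are deposited intensities, and differences are log2(intensity + 1) of CKO minus wild type, within pairs. In pairs 1 and 3 the difference depended on how bright a probe set was, being above 0 for dim and below 0 for bright probe sets, and in pair 3 it fell further with brightness. At the brightness of the Smad1 probe sets, the running median, taken over the probe sets nearest in mean level, was -0.34 to -0.29 in pair 1, -0.03 to -0.01 in pair 2 and -1.22 to -0.79 in pair 3. Differences of the Smads are therefore given as deposited, after subtraction of this running median in each pair (local median centring) and without pair 3. Gene lists have their medians in all 3 ways, and their named genes as deposited and after centring.

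**Figure D1:**
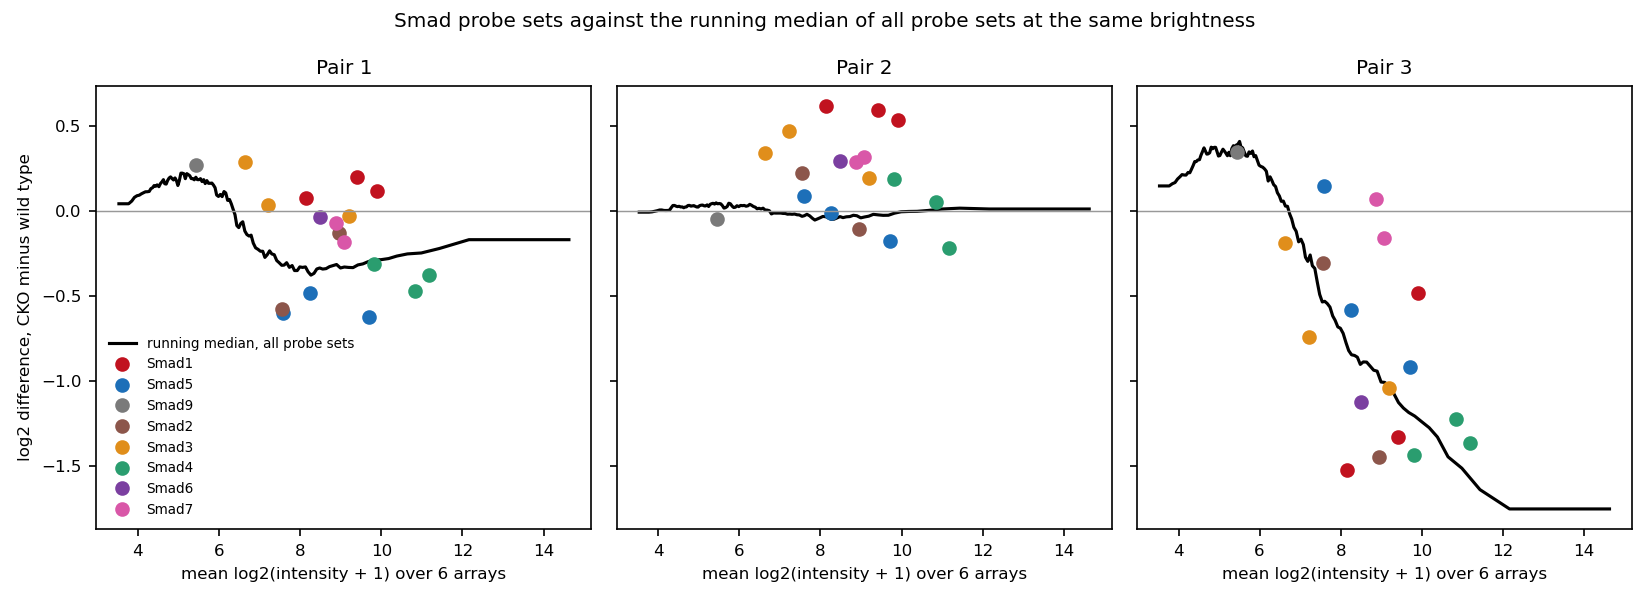
Each point is 1 of the 18 Smad probe sets, coloured by gene, with its mean log2(intensity + 1) over the 6 arrays on the x axis and its log2 difference (CKO minus wild type) in the pair on the y axis. The black line is the running median of all probe sets. All 3 Smad1 points lie above the line in pairs 1 and 2, and in pair 3, where the line falls steeply with brightness, the brightest lies above it and the other 2 lie below it.

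Smad1 intensity was not lower in the CKO lobes of pairs 1 and 2. The brightest Smad1 probe set, 1459843_s_at, read 1026, 1089 and 739 in wild type 1 to 3 and 1111, 1577 and 529 in CKO 1 to 3. CKO 2 was the highest of the 6 arrays and CKO 3 the lowest, so the groups overlapped. Its mean difference was 0.06 ± 0.51 (SD, 3 pairs; 95% interval -0.56 to 0.67), a 1.04-fold level with an interval of 0.678 to 1.59 (limma, adjusted p = 0.904 over all probe sets).

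The second Smad1 probe set, 1448208_at, read 750.0, 772 and 652 in wild type 1 to 3 and 861, 1162 and 259 in CKO 1 to 3. The third, 1416081_at, read 385, 259 and 299.5 in wild type and 406, 397 and 104 in CKO. Both had the same shape as the first, higher in CKO 1 and CKO 2 than in their wild type partners and lowest of all in CKO 3. Their mean differences were -0.18 ± 1.01 and -0.28 ± 1.11 (SD, 3 pairs; limma, adjusted p = 0.789 and 0.696). The 95% intervals of fold, 0.455 to 1.71 and 0.404 to 1.69, leave room for a level under that of wild type by more than a factor of 2.

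Without pair 3 the 3 probe sets gave 0.32, 0.39 and 0.35, from the brightest to the dimmest, with 95% intervals of -0.18 to 0.83, -0.10 to 0.89 and -0.17 to 0.87 (limma, adjusted p = 0.652, 0.602 and 0.644). They were of 1 direction and of similar size there, reading the same RNA on the same arrays, and none passed. The same fit called 0 of the 18 Smad probe sets (0.0622% of all), and 0 at an unadjusted p under 0.05 (8.82%). After local median centring the brightest was higher in all 3 pairs, at 0.40, 0.55 and 0.74 (mean 0.56, 95% interval 0.19 to 0.94, unadjusted p = 0.0103, limma adjusted p = 0.338). The other 2 were at 0.52 and 0.41 in pair 1 and at 0.61 and 0.65 in pair 2, but at -0.21 and -0.73 in pair 3, with means of 0.31 and 0.11 (adjusted p = 0.509 and 0.877). The brightest probe set also differs in kind, since the suffix _s_at marks probes that match more than 1 transcript, and whether another transcript adds to its signal was not tested. The whole lobe includes mesenchyme, vessels and blood, where Smad1 was not targeted. A probe set outside the deleted part can also still read RNA of the recombined gene, so these values check neither the labels nor the deletion.

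**Figure D2:**
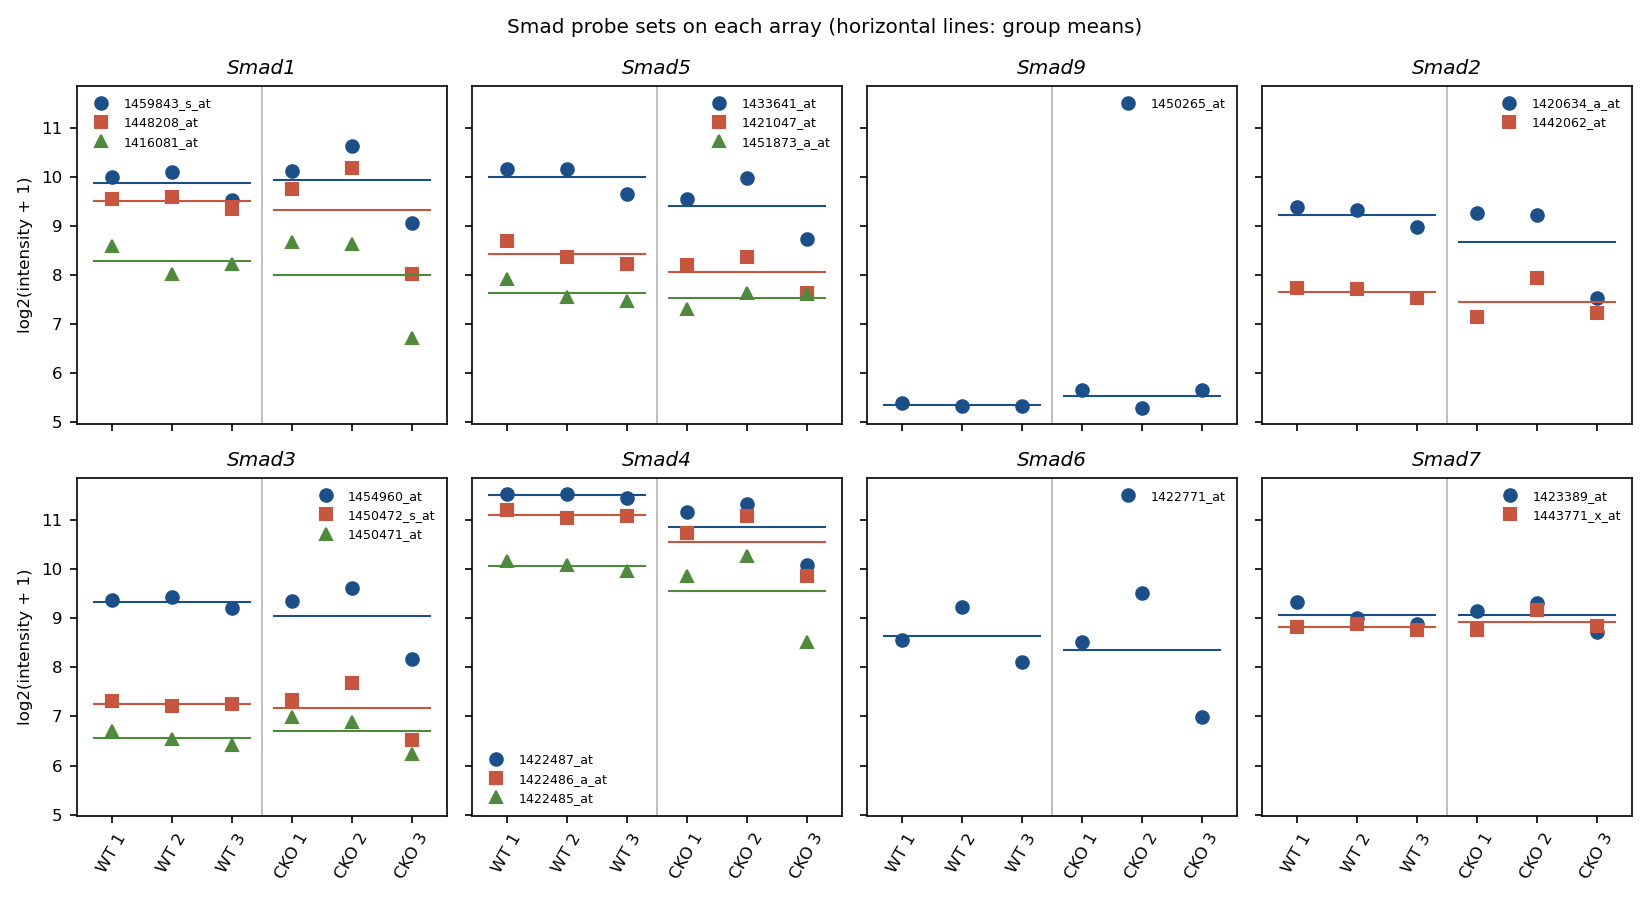
Each panel is 1 Smad gene, each symbol 1 probe set, with log2(intensity + 1) on the y axis for the 3 wild type (WT) and 3 CKO arrays on the x axis, and horizontal lines at group means. CKO 3 is the lowest array for 14 of the 18 probe sets, all 3 of Smad1 among them, and the heights of different probe sets are not comparable with each other.

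None of the 18 Smad probe sets passed across the array (limma, adjusted p under 0.05), where 1 of 45037 did (0.00222%). At an unadjusted p under 0.05 there was 1 of 18, a Smad5 probe set, against 12.7% of all probe sets, with 1 lower (8.40% of all) and 0 higher (4.29%). Lower in all 3 pairs were 4 of 18 (24.1% of all probe sets), and higher in all 3 pairs were 0 of 18 (22.7%). The same 4 were the ones lower in both pairs 1 and 2 (31.1%), 2 of them from Smad5 and 1 each from Smad2 and Smad4. In pair 2, whose running median stayed near 0, 13 of 18 were higher in CKO (50.9%), in pair 1 there were 6 (45.9%), and in pair 3, 15 were lower (48.6%). The median Smad difference was -0.25, against -0.35 for the brighter probe sets of the array, those at or above the median level, to which 17 of the 18 belong. After local median centring the Smad median was 0.11, 0 of 18 passed (0.00444% of all probe sets) and 2 had an unadjusted p under 0.05 (14.1%), both higher (6.41%), from Smad1 and Smad7.

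Smad5, the nearest relative of Smad1 and the other BMP-branch Smad above the median level of the array, had a mean below that of wild type on all 3 probe sets as deposited, and after local median centring on 1 of the 3. Its brightest probe set, 1433641_at, read 1151, 1139 and 797 in wild type 1 to 3 and 746, 1008 and 422 in CKO 1 to 3. Each CKO lung was below its partner, while CKO 2 lay above wild type 3, so the groups overlapped. The difference was -0.57 ± 0.37 (SD, 3 pairs; 95% interval -1.11 to -0.03), a 0.673-fold level (unadjusted p = 0.0416, limma adjusted p = 0.367). After local median centring the pairs were at -0.33, -0.15 and 0.27 and the mean was -0.07 (95% interval -0.50 to 0.36). Without pair 3 the difference was -0.40 (95% interval -0.91 to 0.11).

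The other Smad5 probe sets gave smaller differences. Probe set 1421047_at read 410.5, 330.2 and 298 in wild type and 294, 327 and 199 in CKO, a difference of -0.36 ± 0.30 (SD, 3 pairs; limma, adjusted p = 0.382). The third, 1451873_a_at, read 240.4, 187 and 175 in wild type and 158, 199 and 194 in CKO, a difference of -0.12 ± 0.42 (adjusted p = 0.759). Both were at -0.25 without pair 3, and they turned to 0.06 and 0.16 after local median centring. In pair 1 all 3 Smad5 probe sets were lower in CKO, at -0.62, -0.48 and -0.60, whereas in pair 2 they ranged from -0.18 to 0.09. The running median of pair 1 at their brightness was -0.30, -0.37 and -0.31, which left centred values of -0.33, -0.12 and -0.29. Pair 1 is also the pair whose animals differed in Xist, and the part of that in the Smad5 values was not tested.

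Smad9, the third BMP-branch Smad, was read by a single dim probe set at percentile 34.4 of brightness. Probe set 1450265_at was at 40.7, 39.2 and 39.0 in wild type and 49.4, 37.9 and 49.8 in CKO. CKO 1 and CKO 3 were above all wild type lungs and CKO 2 below them. The difference of 0.19 ± 0.21 (SD, 3 pairs; limma, adjusted p = 0.561) became -0.015 after local median centring, where the running median at its brightness was 0.19, 0.04 and 0.38 in the 3 pairs, and it was 0.11 without pair 3. Without a detection call, no level of Smad9 RNA can be read from this signal. Thus no BMP-branch relative passed in the direction of a gain. As deposited, the upper ends of the intervals were 0.979-fold for the brightest Smad5 probe set and 1.11-fold and 1.36-fold for the other 2. For Smad9 the upper end was 1.59-fold. As log2 differences after local median centring, the upper ends were 0.36, 0.43 and 0.69 for Smad5 and 0.34 for Smad9. Without pair 3 they were 0.11, 0.26 and 0.29 for Smad5 and 0.60 for Smad9, so a gain was not excluded.

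**Figure D3:**
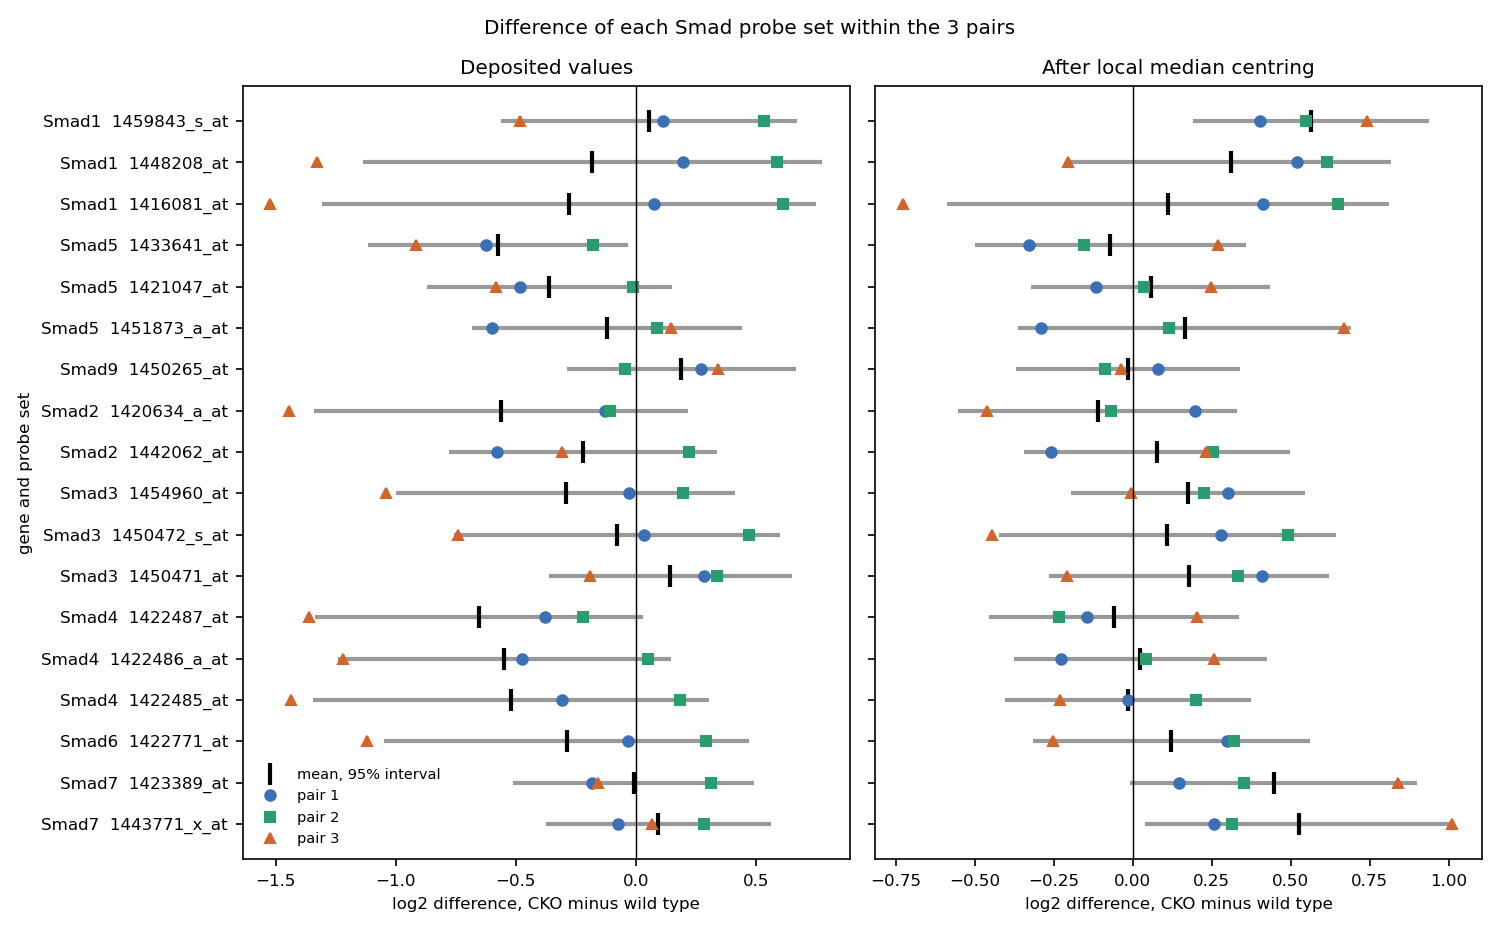
Rows are the 18 Smad probe sets and the x axes give the log2 difference, CKO minus wild type, for pairs 1 to 3 (symbols), with the mean (black tick) and its 95% interval from limma (grey bar), as deposited on the left and after local median centring on the right. The axis ranges differ between the panels. On the left 15 of 18 pair 3 values lie below 0, and on the right the brightest Smad1 and both Smad7 probe sets lie above 0 in all 3 pairs.

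Smad2, a TGF-beta and activin branch Smad, had its brighter probe set lower in CKO in all 3 pairs, without passing. Probe set 1420634_a_at read 667, 638 and 505 in wild type and 609.8, 593 and 185 in CKO. CKO 1 and CKO 2 lay within the wild type range and CKO 3 far below it. The difference was -0.56 ± 0.77 (SD, 3 pairs; limma, adjusted p = 0.378). It was -0.12 without pair 3 and -0.11 after local median centring. Its dimmer probe set, 1442062_at, was at -0.58, 0.22 and -0.31 in the 3 pairs, a mean of -0.22 ± 0.41 (adjusted p = 0.564). That mean was -0.18 without pair 3 and turned to 0.08 after centring.

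Smad3, the other Smad of that branch, had its 3 probe sets at -0.29 ± 0.66, -0.08 ± 0.61 and 0.14 ± 0.29 from the brightest to the dimmest (SD, 3 pairs; limma, adjusted p = 0.549, 0.874 and 0.677). They were at 0.08, 0.25 and 0.31 without pair 3 and at 0.17, 0.11 and 0.18 after local median centring, so that the 2 negative means turned under both. The brightest, 1454960_at, read 663, 689 and 589.5 in wild type and 650.3, 789 and 286 in CKO. In pair 2 all 3 were higher in CKO, at 0.20, 0.47 and 0.34. With Smad1, the 2 dimmer Smad3 probe sets made up the 5 of 18 that were higher in CKO in both pairs 1 and 2 (28.0% of all probe sets), and all 5 were lower in pair 3 (5.30% of all had this sequence of signs).

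Smad4, the common partner, had 1 probe set lower in CKO in all 3 pairs and the other 2 lower in pairs 1 and 3. Probe set 1422487_at read 2971, 2973 and 2789 in wild type 1 to 3 and 2287, 2555 and 1084 in CKO 1 to 3, and it was the only member whose groups did not overlap (5.36% of all probe sets were lower in CKO without overlap, and 4.70% higher, as were 0 Smads). The difference was -0.65 ± 0.62 (SD, 3 pairs; 95% interval -1.34 to 0.03; limma, adjusted p = 0.367). Without pair 3 it was -0.30, and after local median centring -0.06 (95% interval -0.45 to 0.34). The other 2 Smad4 probe sets were at -0.55 and -0.52 (adjusted p = 0.370 and 0.402), at 0.05 and 0.18 in pair 2, at -0.21 and -0.06 without pair 3, and at 0.02 and -0.02 after centring. The wild type lungs differed little, at a mean of 2911 with an SD of 106 for 1422487_at (n = 3).

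Smad6, the inhibitor that acts on BMP signals and whose promoter is shown above, differed between pairs in both genotypes. Probe set 1422771_at read 377, 598 and 275 in wild type and 368, 732 and 126 in CKO. Within either genotype the animal of pair 2 was the highest and that of pair 3 the lowest. The difference was -0.29 ± 0.74 (SD, 3 pairs; 95% interval -1.05 to 0.47; limma, adjusted p = 0.579). It turned to 0.13 without pair 3 and to 0.12 after local median centring.

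Smad7, which inhibits both branches, differed little between CKO 3 and its wild type partner on either probe set. CKO 3 was still the lowest array for 1423389_at, as for most members, but not for 1443771_x_at. Probe set 1423389_at read 647, 512 and 472 in wild type and 569.9, 637 and 424 in CKO, and 1443771_x_at read 453, 475 and 434 in wild type and 431, 579 and 455 in CKO. The differences were -0.01 ± 0.28 and 0.09 ± 0.18 (SD, 3 pairs; limma, adjusted p = 0.984 and 0.777), and 0.07 and 0.11 without pair 3. In pair 3 they were at -0.16 and 0.07, where the running median at their brightness was -0.997 and -0.94. After local median centring they were at 0.15, 0.35 and 0.84 and at 0.26, 0.32 and 1.01 in the 3 pairs, with means of 0.45 and 0.53 (unadjusted p = 0.0534 and 0.0390, limma adjusted p = 0.358 and 0.345). Together with the brightest Smad1 probe set these were the 3 of 18 that were higher in all 3 pairs after centring (19.5% of all probe sets), and 0 were lower in all 3 (20.0%). Cyclic loess normalization between arrays, a curve fit that removes shifts with brightness, gave 4 higher in all 3 pairs (19.8%), these 3 and the brightest Smad3 probe set, and 0 lower (19.9%). Under this normalization 3 of the 18 were higher in CKO without overlap of the groups (5.45% of all probe sets), and 0 passed (0.00444%). An unadjusted p under 0.05 was seen for 2 (14.2%), both higher (6.73%), 1459843_s_at of Smad1 and 1443771_x_at of Smad7. The suffix _x_at marks probes that may bind other transcripts.

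Over the 6 arrays the genes whose log2 values followed the brightest Smad1 probe set most closely were Ubr1, a ubiquitin ligase (r = 0.999), Ldhb, a lactate dehydrogenase subunit (0.999), Rab20, a small GTPase (0.998), Adk, adenosine kinase (0.997), and Aagab (0.995). These are Pearson correlations over 6 arrays with no test. The median correlation of all candidates was 0.705, and the part of the low signal of CKO 3 in these values was not tested. After cyclic loess the values were 0.996, 0.963, 0.225, 0.980 and 0.968.

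Around the Smads, 93 genes of 6 lists were measured, each by its brightest probe set. None passed across the array (limma, as for 0 of all 18193 genes so represented), and at an unadjusted p under 0.05 there were 13 lower (9.96% of all genes) and 1 higher (4.96%). Lower in all 3 pairs were 40 of 93 (29.3% of all genes) and higher in all 3 were 8 (21.0%). Their median difference was -0.36, against -0.09 for all genes. It was -0.10 without pair 3 and 0.03 after local median centring, where all genes were at -0.03 and 0.05.

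The list of BMP ligands, which also holds Bmp1, a protease and not a ligand, had a median of 0.15 over 12 genes. In all 3 pairs 1 was lower and 2 were higher. The list median was 0.14 without pair 3 and 0.22 after local median centring. Bmp6 was at -0.57 ± 0.17 and Bmp2 at -0.85 ± 0.76 (SD, 3 pairs), with Bmp10 at 0.37 ± 0.11 and Bmp8a at 0.45 ± 0.75. After centring these 4 were at -0.38, -0.71, 0.19 and 0.26. As deposited, Bmp10 was at 0.48, 0.25 and 0.38 in the 3 pairs, and Bmp8a at 0.08, -0.04 and 1.30. Receptors, 11 genes for BMP, activin and TGF-beta signals, had a median of -0.37, with 6 lower and 1 higher in all 3 pairs, but of -0.13 without pair 3 and 0.02 after centring. Among them Acvrl1, a BMP type I receptor of endothelium, was at -0.74 ± 0.57, and the BMP type II receptor Bmpr2 at -0.62 ± 0.47, with Acvr1 at -0.66 and Acvr2a at -0.37. After centring Acvrl1 was at -0.24, Bmpr2 at -0.01, Acvr1 at -0.20 and Acvr2a at 0.13. The 12 endothelial markers had a median of -0.95 as deposited and -0.42 after centring, and their part in the Acvrl1 value was not tested. The 9 co-receptor genes had a median of -0.01 (-0.07 without pair 3 and 0.09 after centring). Nrp1 was at -0.87, Rgmb at -0.66, Cfc1 at 0.46 and Tgfbr3 at -0.67, and after centring they were at -0.23, -0.37, 0.62 and -0.08.

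The 18 genes of ubiquitin ligases, phosphatases and deubiquitinases that act on Smads had a median of -0.53, with 11 lower and 0 higher in all 3 pairs, but of -0.15 without pair 3 and -0.01 after local median centring. Ppm1a, a phosphatase of Smads, was at -0.62 ± 0.45, the ligase Rnf111 at -0.64 ± 0.54, Ctdspl at -0.82 ± 0.97 and Uchl5 at -1.16 ± 1.54. After centring these 4 were at -0.12, -0.15, -0.31 and -0.81. As deposited, Uchl5 was at -0.41, -0.15 and -2.93 in the 3 pairs, and Ctdspl at -0.44, -0.10 and -1.93. The 26 anchors, corepressors and partners had a median of -0.42, with 13 lower and 1 higher in all 3 pairs, but of -0.16 without pair 3 and 0.03 after centring. Foxh1, a partner of activated Smad2, was at 1.03 ± 0.54, with 1.39, 0.42 and 1.28 in the 3 pairs and a mean of 1.39 after centring. Zeb2, a Smad-binding repressor, was at -1.25 ± 0.81, with Ep300 at -0.64 and Zeb1 at -0.50. After centring they were at -0.75, -0.14 and -0.0048.

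The 20 genes listed as responding to Smads, Wif1 among them, which the series title names as the target, had a median of -0.21. That median was 0.09 without pair 3 and 0.18 after centring. Wif1 read 111, 209.9 and 69.9 in wild type 1 to 3 and 37.3, 64.0 and 27.6 in CKO 1 to 3. Every CKO value lay below every wild type value, as for 5.36% of all probe sets. The Wif1 difference was -1.52 ± 0.20 (SD, 3 pairs; limma, adjusted p = 0.367), or -1.64 after centring. Id1, which BMP Smads activate directly, read 1237, 841 and 973 in wild type and 1807, 1296 and 392 in CKO, that is 0.55, 0.62 and -1.31 in the 3 pairs. Id3 read 1601, 1293 and 1087 in wild type and 2311, 2081 and 543 in CKO, while Id2 was at -0.13, 0.26 and -1.29 in the 3 pairs (limma, adjusted p = 0.953 for Id1, 0.916 for Id3 and 0.495 for Id2). After centring Id1 was at 0.46, Id3 at 0.60 and Id2 at 0.21. Of the others, Ccn2 was at -0.94 ± 0.59, Hey1 at -0.51 and Id4 at 0.57 (limma, adjusted p = 0.367 for each). These 3 were at -0.39, -0.02 and 0.99 after centring.

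**Figure D4:**
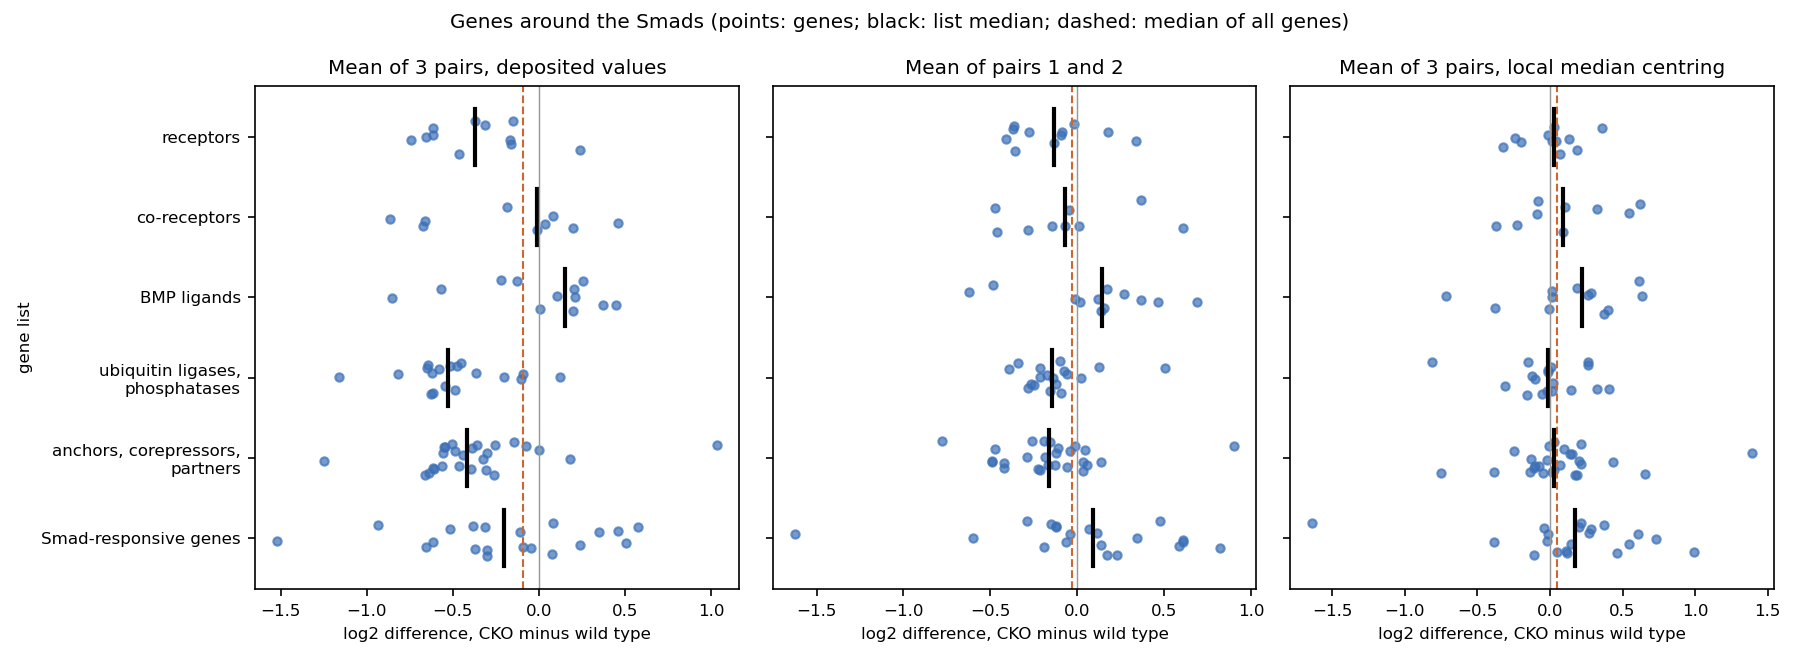
Points are genes of the 6 lists, with the log2 difference (CKO minus wild type) on the x axis as the mean of 3 pairs, the mean of pairs 1 and 2 and the mean of 3 pairs after local median centring, from left to right, and with axis ranges that differ slightly. Black bars are list medians and the dashed line is the median of all genes. The list medians span -0.53 to 0.15 on the left and -0.01 to 0.22 on the right.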

How the data were processed

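The authors deposited 1 linear intensity per probe set for each of 6 arrays, made with RMA per the submitters' processing notes. Its version and settings are not stated there. As deposited, the arrays did not share 1 distribution, with upper quartiles from 170 in CKO 3 to 284 in wild type 2. Their medians ranged from 70.0 in wild type 2 to 77.8 in CKO 3. Scanner values were not used here, so background correction was not repeated. Intensities were turned into log2(value + 1), which shrinks differences at low intensity a little. Control probe sets (64) were left out. Symbols come from the platform annotation.

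Genotype and pair were terms of a linear model per probe set (limma 3.58.1, R 4.3.3, moderated by eBayes, two-sided). P-values were adjusted by Benjamini-Hochberg over 45037 probe sets, with a threshold of 0.05. Pairing was read from the series' design text and the names of the arrays. Deviations from group means correlated within pairs at 0.258, 0.604 and 0.597, and at 0.215 or lower between pairs. Because deviations within a group sum to 0, high values within pairs force lower ones between pairs. This comparison therefore cannot settle the pairing, least of all for pair 1. Exact permutation of 3 arrays against 3 cannot go below p = 0.1 (0.25 within pairs), so none was used. These p-values rest on the spread of differences over the 3 pairs, moderated across probe sets. With 1 array per animal, spread between animals and spread between arrays cannot be told apart. The number of arrays limits the precision. The fit was tested on simulated data with planted changes. Their pair differences had no shift with brightness and a spread capped at the median spread of the probe sets. That test therefore does not show how the fit behaves with an array such as CKO 3.

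Local median centring subtracts, in each pair, the median difference of the 1001 probe sets nearest in mean log2 level. The members and the gene lists were chosen with earlier results of these data known. Of each list the text names up to 4 genes with the smallest p, and Wif1, Id1, Id2 and Id3 whatever their values. In the lists a gene is represented by its brightest probe set. Marker lists of 9 cell types served as checks. Their median differences (CKO minus wild type) are given as deposited, without pair 3 and after local median centring. They were -0.20, 0.08 and 0.24 for general epithelium, -1.57, -0.97 and -0.94 for alveolar type 2 cells, -0.86, -0.31 and -0.28 for alveolar type 1 cells and -0.95, -0.62 and -0.42 for endothelium. They were -0.74, -0.10 and -0.11 for fibroblasts, -0.47, -0.03 and 0.06 for smooth muscle and pericytes, -0.19, -0.04 and 0.23 for blood cells, 0.19, 0.06 and 0.11 for neurons or glia and 0.47, 0.47 and 0.51 for liver. Alternatives were other normalizations, pseudocount, filter, variance prior, array weights, no pair block and left-out arrays. Sequences are from RefSeq, GRCm38.p6, and those of Smad2, Smad4 and Smad7 were not used here.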

Additional observations from a re-analysis of the deposited data

Results flagged for a closer look

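The control probe set for 18S ribosomal RNA, which enters no comparison, read 2887 in Smad1 CKO 3, against 242.5 to 297.2 on the other 5 arrays. The same array was the lowest of the 6 for 14 of the 18 Smad probe sets. The part of this signal in the Smad values was not tested.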

How the results depend on the processing

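Under 12 of the 13 alternatives and the one added after seeing the data, no Smad probe set was called. With array weights 6 were called, all lower (all 3 of Smad5, 1442062_at of Smad2, 1422487_at and 1422486_a_at of Smad4), in a fit that called 23234 probe sets across the array. Those weights were equal within each pair and stood at 7.05 in pair 1, 0.507 in pair 2 and 0.280 in pair 3, so that fit rests mostly on pair 1. Without the pair as a block the brightest Smad1 probe set stayed at 0.06 (SE 0.41, limma, adjusted p = 0.944). The block changed no call of a Smad probe set.

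Calls across the array were 0 without the block, after quantile normalization, with a pseudocount of 16, and with centring without pair 3 (added), 2 after cyclic loess and after local median centring, 16 without the dimmer probe sets and 44 with an intensity trend. Leaving out pairs or 1 CKO array gave 0 to 28. The cause was not tested.

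Direction was less stable than the calls. After cyclic loess 11 of 18 changed sign: 2 Smad1 probe sets to 0.31 and 0.088, 2 of Smad5 to 0.019 and 0.15, Smad9 to -0.0023, 1442062_at of Smad2 to 0.048, 2 of Smad3 to 0.18 and 0.12, 1422486_a_at of Smad4 to 0.033, Smad6 to 0.12 and 1423389_at of Smad7 to 0.45. Local median centring also turned 11, to 0.31 and 0.11 (Smad1), 0.056 and 0.16 (Smad5), -0.015 (Smad9), 0.076 (Smad2), 0.17 and 0.11 (Smad3), 0.024 (Smad4), 0.12 (Smad6) and 0.45 (Smad7). Quantile normalization turned 4, to 0.17 (Smad1), 0.15 (Smad5), 0.075 (Smad3) and 0.41 (Smad7). Array weights turned 4, to 0.17 and 0.054 (Smad1), 0.036 (Smad3) and -0.045 (Smad7). Centring without pair 3, added, turned 9, to 0.57 and 0.53 (Smad1), -0.0044 (Smad9), 0.064 (Smad2), 0.26 and 0.39 (Smad3), 0.093 (Smad4), 0.31 (Smad6) and 0.25 (Smad7).

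Over the fits that left out a pair or 1 CKO array, the Smad1 probe sets ranged from -0.18 to 0.50 (brightest), -0.57 to 0.47 and -0.72 to 0.37. Others that changed sign there ranged from -0.25 to 0.12 (1451873_a_at of Smad5), -0.85 to 0.0055 (1420634_a_at of Smad2), -0.53 to 0.15, -0.35 to 0.25 and -0.0025 to 0.38 (Smad3), -0.58 to 0.39 (Smad6), -0.17 to 0.16 and -0.0026 to 0.18 (Smad7). The 2 dimmer Smad1 probe sets, 1454960_at and 1450472_s_at of Smad3 and Smad6 were above 0 without CKO 3 or its pair and below 0 without pair 1, pair 2 or CKO 1. The number of arrays limits what can be shown, and without detection calls no limit from signal over background was set.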
